A study of Mus musculus with 6 samples.

Results

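The nuclear genes for the respiratory chain and ATP synthase were compared between 3 Fkbp8 mutant and 3 wildtype samples of posterior tissue from mouse embryos. Members were the gene probes whose symbol begins with Ndufa, Ndufb, Ndufc, Ndufs, Ndufv, Uqcr, Cox4i, Cox5, Cox6, Cox7, Cox8 or Atp5, or is Sdha, Sdhb, Sdhc, Sdhd, Cyc1 or Cycs. This gave 80 probes for 72 genes, of 34967 gene probes on the array. By symbol, 35 probes belonged to complex I, 3 to complex II, 8 to complex III, 11 to complex IV and 13 to complex V, 9 were assembly factors of complex I (Ndufaf genes, which match the prefix but are not subunits), and 1 was Cycs, the mobile electron carrier cytochrome c.

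The mutant group (samples a, b and c) carried a mutation of Fkbp8 that the labels do not describe further, and the wildtype group (samples d, e and f) came from the same intercrosses of heterozygotes. Tissue behind the forelimb bud was taken at E9.5, and each sample was hybridised to its own 1-colour CodeLink Mouse Whole Genome array. The labels do not say whether a sample is 1 embryo or a pool, and for mutant a they use the plural. The p-values below set each group difference against the spread between samples within a group, for these 6 samples only. The test estimates that spread partly from all tested probes. Whether it is a spread between single embryos or between pools is therefore not known.

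Oxidative phosphorylation passes electrons from NADH through complex I, or from succinate through complex II, to coenzyme Q, then through complex III and cytochrome c to oxygen at complex IV. Complexes I, III and IV pump protons across the inner mitochondrial membrane, and complex V, the ATP synthase, uses the return flow to make ATP. Most subunits are encoded in the nucleus and imported, while a few hydrophobic ones are encoded by mitochondrial DNA, and no probe of the mitochondrially encoded list (13 genes) was found by symbol. Fkbp8, also called FKBP38, is a membrane-anchored member of the FK506-binding protein family that is found at the outer mitochondrial membrane and the endoplasmic reticulum.

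Values are log2 intensities after background correction and quantile normalization, differences are mutant minus wildtype with the standard error from limma, and array values run in the order mutants a, b, c and wildtypes d, e, f. Between 57.6% and 61.8% of gene probes were above local background per array, lowest on mutant c. Fkbp8 itself averaged 6.23 ± 0.10 in mutants and 10.66 ± 0.09 in wildtypes (SD, n = 3 each). Its spot stood above background in no mutant sample and in every wildtype sample, and its level was at least 18.8-fold lower in mutants (limma adjusted p = 1.18e-07). Transcripts of Ddx3y, Uty and Eif2s3y, all Y-linked, were detected above background in each of the mutant samples and in no wildtype sample, while 1 of the 2 Xist probes was detected in no mutant and in each wildtype sample. Genotype and sex-linked expression therefore cannot be told apart in any difference below. In bulk tissue, fewer cells of a type and less RNA per cell cannot be told apart either.

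No oxidative phosphorylation probe passed the test. Of the 80 member probes, 71 (67 genes) were above background on at least 3 arrays and were tested, and 0 of them had a limma adjusted p under 0.05, against 26 of all 21688 tested probes, which is 0.120%. The smallest adjusted p among members was 0.204. At an unadjusted limma p under 0.05 there were 17 member probes, or 23.9%, where 12.2% of all tested probes reached that level. Of these, 6 were higher in mutants (8.45%, against 6.43% of all tested probes) and 11 were lower in mutants (15.5%, against 5.81% of all tested probes). The mutant and wildtype arrays did not overlap at all for 21 member probes (29.6%), 9 higher and 12 lower in mutants, where 19.2% of all tested probes with 6 usable spots did not overlap (11.0% higher and 8.26% lower in mutants). Both the number and the split of probes at this level depended on the scaling. There were 7 higher and 4 lower when each array was centred on its median (15.5% of members, against 8.48% of all tested probes) and 3 higher and 11 lower with cyclic loess (19.7%, against 12.1%). With the deposited normalized table there were 4 higher and 5 lower (12.7%, against 10.6%) and with plain background subtraction 2 higher and 7 lower (12.7%, against 11.0%), so under these last settings the share of members was near that of all tested probes.

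Differences were small for most subunits. The median difference over the 71 member probes was -0.01, beside 0.01 over all tested probes, with 32 positive and 39 negative values and 55 under 0.2 in size. The middle of the distribution lay between -0.15 and 0.09 (quartiles), and the full range was -1.93 to 0.29. For 64 of the 71 probes the 95% interval of the difference stayed within 1.5-fold in either direction, and for 69 it stayed within 2-fold. The median standard error was 0.09 both for members and for all tested probes. The median deviation of the members from their 6-array mean was 0.03, 0.00 and -0.03 on the mutant arrays and 0.01, -0.01 and 0.01 on the wildtype arrays, so the arrays were not ordered by group.

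**Figure D1:**
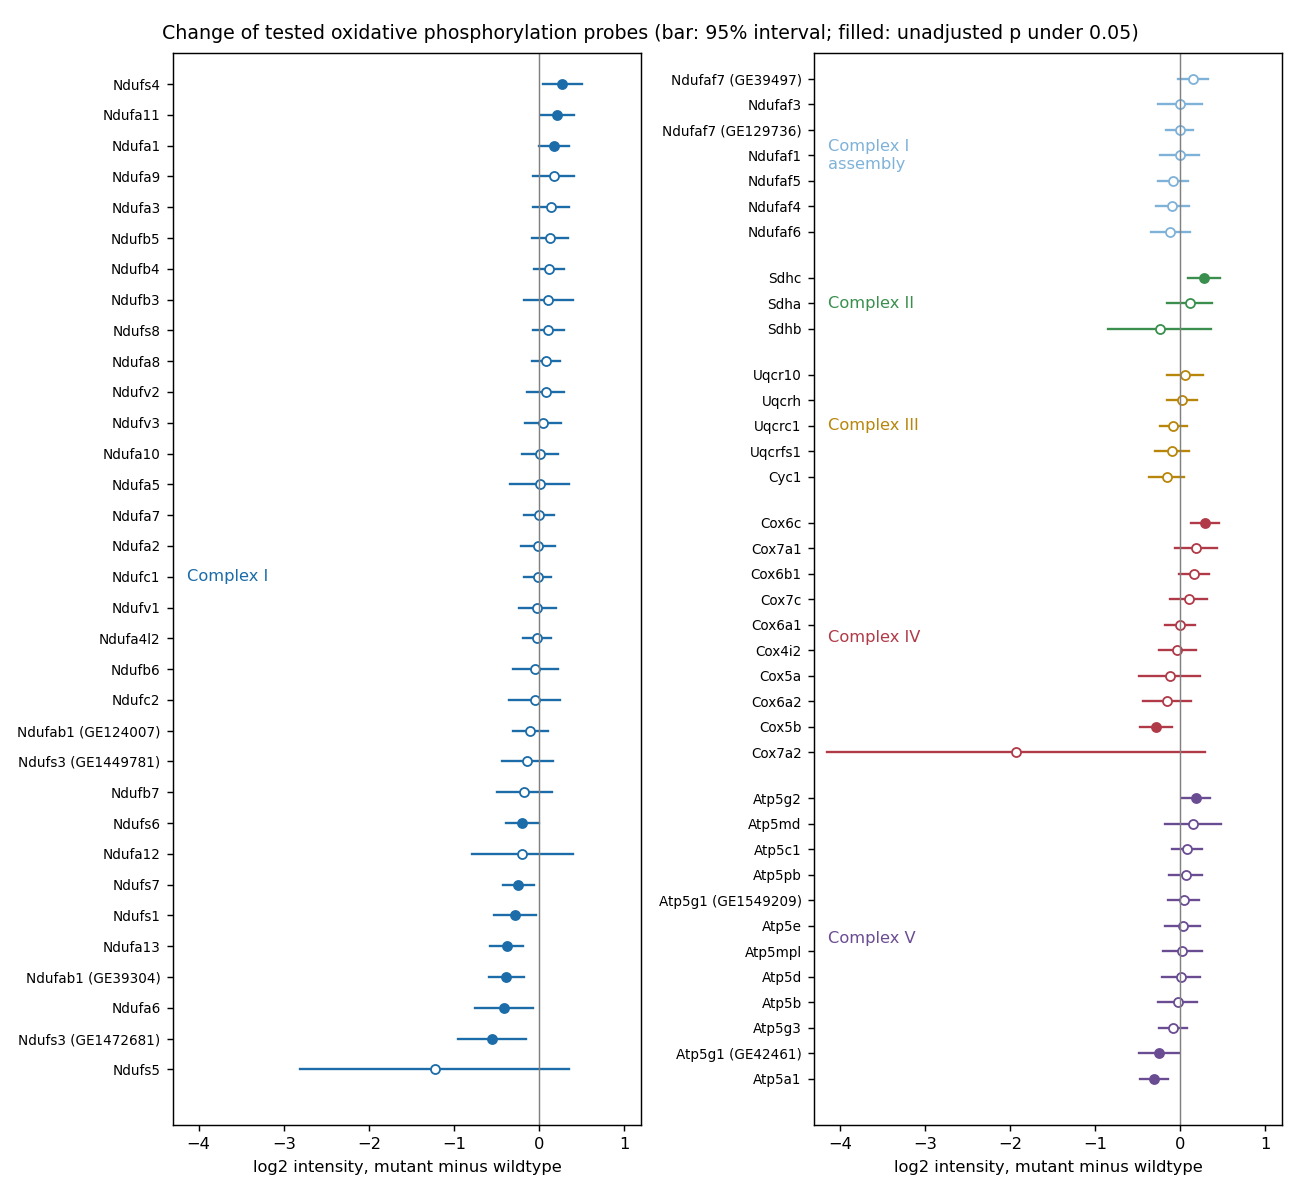
Difference in log2 intensity, mutant minus wildtype, for 70 of the 71 tested oxidative phosphorylation probes (points) with 95% intervals (bars), ordered by size within each complex; filled points had an unadjusted limma p under 0.05. Most points lie within 0.2 of the zero line except in complex II, which has 3 probes, and the long bars of Cox7a2 and Ndufs5 belong to probes with 1 deviating array.

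Detector saturation did not touch the members. Of the 480 member spots, 0 were saturated and 0 were marked contaminated, irregular or masked. The brightest member spot had a mean of 17785, whereas the dimmest saturated spot among all gene probes had 22697. Each array held 22 to 36 saturated gene probes (36, 32 and 22 on the mutant arrays, 32, 31 and 30 on the wildtype arrays). Of the 80 member probes, 69 were above background on all 6 arrays and 7 on none.

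Complex I, the NADH dehydrogenase that forms an entry point of the chain, held 34 of the 71 tested member probes. It also had the most probes that were lower in mutants. Of its 34 tested probes, 8 were lower (23.5%, against 5.81% of all tested probes) and 3 higher (8.82%, against 6.43%) at an unadjusted p under 0.05, and 0 passed after adjustment. The groups did not overlap for 12 of them, 4 higher and 8 lower in mutants (35.3%, against 19.2% of all tested probes). The median difference over complex I was nevertheless -0.02, with 15 positive and 19 negative values.

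The nuclear-encoded core subunits of complex I, which include those that carry the flavin and the iron-sulfur clusters, had 8 tested probes for 7 genes. This grouping of subunits was set after the values were known. At an unadjusted p under 0.05, 4 of the 8 probes were lower and 0 higher, against 5.81% and 6.43% of all tested probes. This count was made with quantile normalization only. These 8 probes had a median difference of -0.15 and ranged from -0.55 to 0.11. Ndufs7, which carries the last iron-sulfur cluster before coenzyme Q, read 11.58, 11.72 and 11.63 in mutants, against 11.94, 11.95 and 11.78 in wildtypes. Every mutant array lay below every wildtype array, with a difference of -0.24 ± 0.08 (SE; limma adjusted p = 0.314). Ndufs1, the largest subunit of the NADH-oxidising arm, had values of 9.47, 9.57 and 9.17 in mutants and 9.65, 9.74 and 9.66 in wildtypes. Again the groups did not overlap, and mutant c was lowest (-0.28 ± 0.11, limma adjusted p = 0.361).

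The core subunit Ndufs3 was measured by a pair of probes that differed in size but not in sign. The probe GE1472681 read 8.93, 8.49 and 8.65 in mutants, against 8.98, 9.11 and 9.63 in wildtypes, and mutant a came within 0.05 of wildtype d, although the groups did not overlap. Its difference was -0.55 ± 0.18 (limma adjusted p = 0.295). The probe GE1449781 had 8.60, 8.46 and 8.10 in mutants and 8.39, 8.63 and 8.57 in wildtypes, groups that overlapped, with a difference of -0.14 ± 0.13. For the core subunits Ndufv1, Ndufv2 and Ndufs8 the intervals included 0. Ndufv1, which binds NADH and the flavin, differed by -0.02 (95% interval -0.24 to 0.20), Ndufv2 by 0.07 (-0.14 to 0.29) and Ndufs8 by 0.11 (-0.07 to 0.29).

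The accessory subunits of complex I, which surround the core, had no common direction. Of 26 probes for 25 genes, 13 were positive and 13 negative, with a median of -0.01. At an unadjusted p under 0.05 there were 3 higher and 4 lower, against 6.43% and 5.81% of all tested probes. Ndufa13, a membrane-arm subunit also known as GRIM-19, had the smallest p of all members. It read 12.13, 12.37 and 12.22 in mutants, against 12.57, 12.66 and 12.63 in wildtypes, with 0.20 between the highest mutant and the lowest wildtype array (-0.38 ± 0.08, limma adjusted p = 0.204). Ndufa13 lies on chromosome 8, as does Fkbp8, with 30 protein-coding genes between them in the RefSeq order, of which 20 were tested. Ndufb7, the other tested subunit gene on that chromosome, has 125 between it and Fkbp8 and differed by -0.17 (95% interval -0.49 to 0.15).

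Ndufab1 encodes the mitochondrial acyl carrier protein, which is both a complex I subunit and part of mitochondrial fatty acid synthesis. Its probe GE39304 had 7.77, 7.66 and 7.86 in mutants and 8.27, 8.13 and 8.05 in wildtypes, all mutants below all wildtypes (-0.39 ± 0.09, limma adjusted p = 0.219). The other Ndufab1 probe, GE124007, had 8.62, 8.79 and 8.75 in mutants and 8.71, 8.80 and 8.96 in wildtypes, which overlapped (-0.10 ± 0.09). Ndufa6, an accessory subunit of the LYR protein family, read 7.87, 7.62 and 7.77 in mutants, against 7.91, 8.06 and 8.52 in wildtypes. Mutant a and wildtype d were only 0.04 apart, and the difference was -0.41 ± 0.15 (limma adjusted p = 0.342). Ndufs6, a small accessory subunit of the NADH-oxidising arm, had 12.72, 12.98 and 12.81 in mutants and 13.02, 13.01 and 13.06 in wildtypes, a difference of -0.20 ± 0.09 with a gap of 0.03 (limma adjusted p = 0.407).

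Ndufs4, Ndufa11 and Ndufa1 were the complex I probes higher in mutants at an unadjusted p under 0.05. Ndufs4, an accessory subunit needed for the assembly of the NADH-oxidising arm, had 11.98, 11.98 and 11.89 in mutants and 11.87, 11.65 and 11.50 in wildtypes, with mutant c and wildtype d close to each other (0.27 ± 0.10, limma adjusted p = 0.344). Ndufa11, a membrane-arm subunit, read 12.24, 12.38 and 12.21 in mutants, against 12.16, 12.05 and 11.96 in wildtypes (0.21 ± 0.09, limma adjusted p = 0.375). The X-linked subunit Ndufa1 read 11.94, 12.09 and 12.08 in mutants and 11.91, 11.83 and 11.85 in wildtypes (0.18 ± 0.08, limma adjusted p = 0.407). In all 3 genes the mutant arrays stood above the wildtype arrays without overlap. Ndufa4l2, a relative of Ndufa4 that is not a regular subunit, differed by -0.02 (95% interval -0.19 to 0.14). Leaving aside Ndufs5 and Ndufa12, described below, the other 14 accessory probes ranged from -0.05 (Ndufc2) to 0.17 (Ndufa9), 10 positive and 4 negative. Among these only Ndufb4, with 11.76, 11.84 and 11.95 in mutants and 11.72, 11.76 and 11.71 in wildtypes, had groups that did not overlap, by a narrow margin (0.12 ± 0.08).

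The plot of single arrays shows 10 of the 11 probes of complex I at an unadjusted p under 0.05 and the 6 probes of complexes II, IV and V at the same level, which are described further on.

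**Figure D2:**
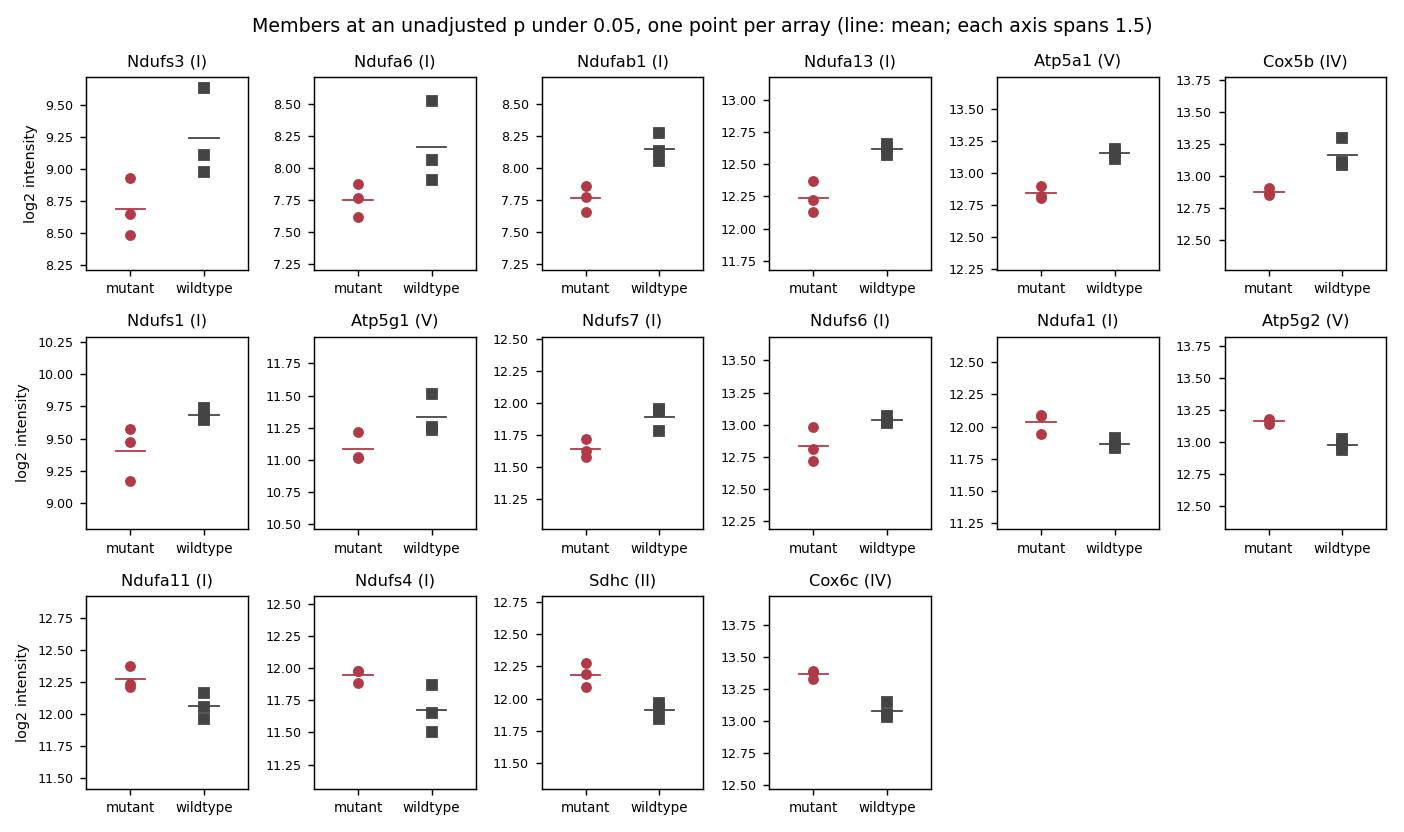
Log2 intensity on each array for 16 of the 17 member probes at an unadjusted limma p under 0.05, with mutants (red circles) left of wildtypes (dark squares), the group mean as a line, the complex in brackets and every axis spanning 1.5. The first 10 panels were lower in mutants and the last 6 higher, and in each panel the groups are separate.

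Promoter windows from RefSeq (GRCm38.p6, 250 bases before to 50 after each gene's start) were found for 58 of the 72 member genes. They were searched on both strands for short motifs named after 3 regulators of respiratory genes, namely GCGC and TGCGC with any single base between them (NRF1-type), CCGGAAG (ETS-type, the family of Gabpa) and AAGATGGC (YY1-type). The NRF1-type motif was in 15 of the 58 member genes (25.9%) and in 5.19% of 27025 genes with a window. The ETS-type motif was in 12 (20.7%, against 9.93%) and the YY1-type motif in 8 (13.8%, against 3.19%). At least 1 of the motifs was in 32 member genes (55.2%, against 16.4%).

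Genes with and without a motif differed little in their values. Probes whose window held the NRF1-type motif had a median difference of -0.01 (15 probes, 7 positive and 8 negative), beside -0.00 in the 44 probes without it. For the ETS-type motif the medians were -0.01 with it and 0.00 without, and for the YY1-type motif 0.06 in 7 probes with it and -0.00 in 52 without. A pair of genes with the same motif but opposite differences is shown for the NRF1-type (Ndufa11 at 0.21, Ndufa6 at -0.41) and for the YY1-type (Ndufs4 at 0.27, Ndufs7 at -0.24). They were chosen after their values were seen. Each sequence runs 5′ to 3′ on the gene's strand, capitals mark the motif, and a match of letters is a description of the window and not a binding site.
Ndufa11, chr17:56717512-56717811, plus strand: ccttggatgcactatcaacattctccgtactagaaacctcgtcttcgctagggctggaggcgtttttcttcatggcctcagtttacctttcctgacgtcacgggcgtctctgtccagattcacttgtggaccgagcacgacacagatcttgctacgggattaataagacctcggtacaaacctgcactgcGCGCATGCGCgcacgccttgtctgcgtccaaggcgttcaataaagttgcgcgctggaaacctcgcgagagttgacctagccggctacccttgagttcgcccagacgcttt
Ndufa6, chr15:82354242-82354541, minus strand: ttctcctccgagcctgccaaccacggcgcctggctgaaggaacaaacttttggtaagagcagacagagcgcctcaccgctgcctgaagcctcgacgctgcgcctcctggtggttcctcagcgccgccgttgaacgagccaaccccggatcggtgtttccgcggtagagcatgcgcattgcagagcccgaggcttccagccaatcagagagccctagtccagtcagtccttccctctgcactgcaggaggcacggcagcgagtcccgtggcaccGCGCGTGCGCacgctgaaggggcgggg
Ndufs4, chr13:114388045-114388344, minus strand: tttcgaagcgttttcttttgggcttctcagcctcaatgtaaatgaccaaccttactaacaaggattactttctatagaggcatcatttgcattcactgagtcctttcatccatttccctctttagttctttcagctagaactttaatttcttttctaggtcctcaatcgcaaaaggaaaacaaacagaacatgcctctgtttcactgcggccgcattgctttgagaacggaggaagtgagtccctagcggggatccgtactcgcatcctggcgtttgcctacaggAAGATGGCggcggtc
Ndufs7, chr10:80249199-80249498, plus strand: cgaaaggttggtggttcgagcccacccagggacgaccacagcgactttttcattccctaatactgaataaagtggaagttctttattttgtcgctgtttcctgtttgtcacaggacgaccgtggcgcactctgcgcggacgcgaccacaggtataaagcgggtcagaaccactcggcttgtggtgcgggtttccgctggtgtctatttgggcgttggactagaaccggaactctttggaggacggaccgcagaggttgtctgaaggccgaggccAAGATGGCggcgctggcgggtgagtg
In Ndufa11 the motif begins 60 bases before the start, and in the other windows it lies in the stretch after the start.

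Complex II, the succinate dehydrogenase shared with the tricarboxylic acid cycle, was represented by 3 genes. Sdhc, a membrane anchor at the coenzyme Q site, read 12.19, 12.28 and 12.09 in mutants, against 11.97, 11.92 and 11.84 in wildtypes. All mutants were above all wildtypes, with a difference of 0.28 ± 0.08 (limma adjusted p = 0.275). Sdha, the flavoprotein that oxidises succinate, had 12.85, 12.74 and 12.67 in mutants and 12.88, 12.46 and 12.60 in wildtypes, which overlapped (0.11 ± 0.11). Sdhb, the iron-sulfur subunit, differed by -0.24 ± 0.26 and is described below with the probes that had 1 deviating array.

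In complex III, which hands electrons from coenzyme Q to cytochrome c, 0 of 5 tested probes reached an unadjusted p under 0.05 and all groups overlapped. Cyc1, the cytochrome c1 subunit, came nearest, with 12.14, 12.12 and 12.32 in mutants and 12.28, 12.32 and 12.46 in wildtypes (-0.16 ± 0.09, limma adjusted p = 0.492). Mutant c was as high as wildtype e. The Rieske iron-sulfur subunit Uqcrfs1 differed by -0.10 (95% interval -0.30 to 0.10), the structural subunit Uqcrc1 by -0.08 (-0.24 to 0.08), and the small subunits Uqcr10 by 0.05 (-0.16 to 0.27) and Uqcrh by 0.02 (-0.16 to 0.19). The median over the complex was -0.08. Probes for Uqcrc2 and Uqcrq and the other Uqcr10 probe were not above background on any array.

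Complex IV, the cytochrome c oxidase, had 10 tested probes with a median difference of -0.02. At an unadjusted p under 0.05, 1 was higher and 1 lower (10% each), against 6.43% and 5.81% of all tested probes. Cox6c, a small transmembrane subunit, read 13.38, 13.39 and 13.33 in mutants, against 13.15, 13.06 and 13.03 in wildtypes, a difference of 0.29 ± 0.07 with the groups well apart (limma adjusted p = 0.239). Cox5b, a zinc-binding subunit on the matrix side, read 12.87, 12.91 and 12.85 in mutants, against 13.30, 13.09 and 13.11 in wildtypes. This was a difference of the same size in the opposite direction, -0.29 ± 0.08, also without overlap (limma adjusted p = 0.266). Cox6b1, on the side facing cytochrome c, had 12.15, 12.13 and 12.11 in mutants and 12.05, 11.87 and 11.99 in wildtypes (0.16 ± 0.08, limma adjusted p = 0.438).

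Several complex IV subunits exist in a form of heart and skeletal muscle and a form of other tissues. Of the muscle forms, Cox7a1 had 6.73, 6.79 and 6.84 in mutants and 6.68, 6.76 and 6.38 in wildtypes, and was above background on 3 mutant and 2 wildtype arrays (0.18 ± 0.11). Cox6a2 had 6.81, 6.98 and 6.78 in mutants and 6.84, 6.92 and 7.29 in wildtypes (-0.16 ± 0.12), and both genes overlapped between groups. Of the forms of other tissues, Cox6a1 had 13.74, 13.88 and 13.83 in mutants and 13.90, 13.77 and 13.80 in wildtypes (-0.01, 95% interval -0.18 to 0.17). Cox4i2, the isoform known from lung and from low oxygen, had 8.34, 8.12 and 8.40 in mutants and 8.37, 8.22 and 8.37 in wildtypes (-0.04, 95% interval -0.25 to 0.18). Cox7b2 was above background on 1 mutant array and no wildtype array and was not tested. Cox7c differed by 0.10 (95% interval -0.12 to 0.31) and Cox5a by -0.12 (-0.48 to 0.24). Of 10 probes for heart and skeletal muscle markers, 7 were not above background on any array. The other 3 were detected and tested, and their intervals included 0. Actc1 differed by 0.14 and Myl7 by 0.09, both above background on every array. Myog differed by 0.21 and was above background on 2 mutant and 2 wildtype arrays.

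In complex V, the catalytic head held the clearest difference. Atp5a1, the alpha subunit, read 12.80, 12.82 and 12.90 in mutants, against 13.11, 13.19 and 13.16 in wildtypes. Each group spanned no more than 0.10 and the gap between them was wider than either (-0.31 ± 0.07, limma adjusted p = 0.218). For the partners of Atp5a1 in the head the differences were smaller and the intervals included 0. Atp5b, the catalytic beta subunit, differed by -0.03 (95% interval -0.26 to 0.20), Atp5c1, the rotating gamma subunit, by 0.08 (-0.09 to 0.25), Atp5d by 0.01 (-0.22 to 0.24) and Atp5e by 0.03 (-0.18 to 0.23). The difference between Atp5a1 and its partners was not tested.

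The membrane part of complex V contains a ring of subunit c, whose mature protein is encoded alike by Atp5g1, Atp5g2 and Atp5g3. Atp5g2 had 13.14, 13.17 and 13.18 in mutants and 13.02, 12.94 and 12.98 in wildtypes, higher on all mutant arrays (0.18 ± 0.07, limma adjusted p = 0.355). Atp5g3 was slightly lower on all mutant arrays, with 13.94, 13.96 and 13.92 in mutants and 13.99, 14.09 and 14.01 in wildtypes (-0.09 ± 0.07, limma adjusted p = 0.643). The 2 probes of Atp5g1 differed in sign. GE42461 read 11.22, 11.02 and 11.02 in mutants, against 11.23, 11.26 and 11.52 in wildtypes, barely without overlap (-0.25 ± 0.10, limma adjusted p = 0.379), while GE1549209 read 7.54, 7.51 and 7.57 in mutants and 7.61, 7.49 and 7.40 in wildtypes (0.04 ± 0.08). Atp5md differed by 0.15 (95% interval -0.19 to 0.48), Atp5pb by 0.06 (-0.13 to 0.25) and Atp5mpl by 0.02 (-0.20 to 0.25). Over all 12 tested probes of complex V the median was 0.03, with 8 positive and 4 negative values.

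The 2 most negative members, Cox7a2 and Ndufs5, each had a single mutant array far below the others. Of the 71 member probes, 4 (5.63%) had an array more than 0.8 from the median of the 6 arrays, against 1.79% of all tested probes. These 4 were chosen after their values were seen. Cox7a2, the complex IV subunit form of tissues other than muscle, read 11.24, 6.93 and 11.02 in mutants and 12.00, 11.78 and 11.19 in wildtypes (-1.93 ± 0.97, limma adjusted p = 0.466). On mutant b its background-subtracted spot intensity was 67.5, against 2422 and 1722 on mutants a and c and 4229, 3555 and 2311 on wildtypes d, e and f. Without mutant b the difference was -0.52.

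Ndufs5, an accessory subunit of complex I, read 9.12, 9.06 and 6.15 in mutants, against 9.10, 9.82 and 9.09 in wildtypes (-1.23 ± 0.69, limma adjusted p = 0.505). Its spot on mutant c was the only one of these 4 marked as not above background. Without mutant c the difference was -0.24. The platform annotation gives this probe the symbol of a Ndufs5 pseudogene, so its target is uncertain. Ndufa12, another accessory subunit, read 13.35, 13.36 and 12.26 in mutants and 13.13, 13.24 and 13.20 in wildtypes, a difference of -0.20 ± 0.26 that turned to 0.17 without mutant c. Sdhb read 11.95, 11.89 and 11.04 in mutants and 12.07, 11.41 and 12.13 in wildtypes, a difference of -0.24 ± 0.26 that turned to 0.05 without mutant c.

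**Figure D3:**
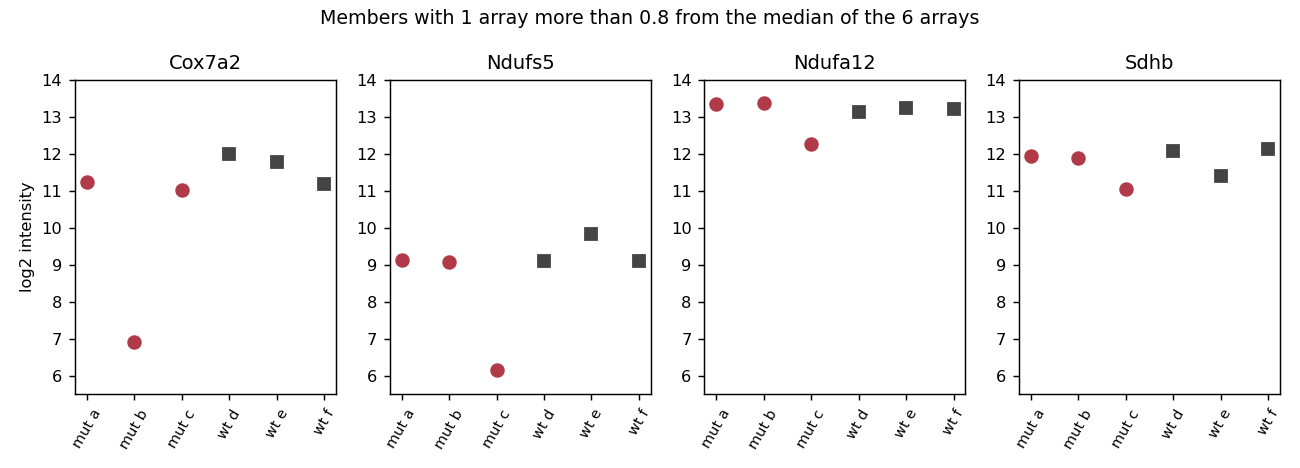
Log2 intensity on each array (mutants a to c as red circles, wildtypes d to f as dark squares) for the 4 tested members with an array more than 0.8 from the median of the 6 arrays. Mutant b is low for Cox7a2 and mutant c is low for Ndufs5, Ndufa12 and Sdhb, while the other arrays of each probe read higher.

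Cycs had 1 probe, and it was not above background on any array (6.13, 6.04 and 6.04 in mutants, 5.95, 6.06 and 6.06 in wildtypes). The same held for Ndufaf8, for a second probe of each of Ndufaf5, Atp5c1 and Uqcr10, and for Uqcrc2 and Uqcrq. With Cox7b2 and the dimmer Ndufa12 probe these were the 9 member probes that were not tested. The assembly factors of complex I ranged from -0.12 to 0.15 over 7 tested probes, and 0 reached an unadjusted p under 0.05. The 2 Ndufaf7 probes, for a methyltransferase that acts on complex I, differed in sign at 0.15 ± 0.08 and -0.01 ± 0.07.

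Other genes that build or regulate the respiratory chain were taken as lists, and 0 probes of any of them passed at an adjusted p under 0.05. The probe with the smallest p was Hccs, the X-linked enzyme that attaches haem to cytochrome c and to Cyc1. It read 8.65, 8.58 and 8.61 in mutants, against 9.18, 9.11 and 9.08 in wildtypes, a difference of -0.51 ± 0.07 in which the groups were far apart. Its limma adjusted p was 0.0534, and it moved to 0.0498 with cyclic loess normalization and to 0.0464 when only probes above background on all 6 arrays were kept.

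Nrf1 encodes a transcription factor of nuclear respiratory genes, and Tfam encodes the factor that packages and transcribes mitochondrial DNA. Nrf1 had 8.16, 8.12 and 8.31 in mutants and 8.81, 8.65 and 8.56 in wildtypes (-0.48 ± 0.09, limma adjusted p = 0.161). Tfam had 11.21, 11.30 and 10.98 in mutants and 11.62, 11.65 and 11.67 in wildtypes (-0.48 ± 0.10, limma adjusted p = 0.162). For both genes all mutant arrays lay below all wildtype arrays. Their lists were mixed. Of 9 tested regulator probes, Nrf1 included, 4 were positive and 5 negative, with a median of -0.03 (Gabpa at -0.24, Yy1 at 0.08, and Pprc1 at 0.10 and -0.03 on its 2 probes). Of 11 probes for mitochondrial DNA and its transcription, Tfam included, 7 were positive and 4 negative, with a median of 0.02.

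The assembly factor list had 25 tested probes and a median of -0.07. At an unadjusted p under 0.05, 1 was higher and 2 were lower, against 6.43% and 5.81% of all tested probes. Sdhaf4, an assembly factor of complex II, had 9.26, 9.24 and 9.26 in mutants and 8.91, 9.01 and 9.03 in wildtypes (0.27 ± 0.07, limma adjusted p = 0.243). Timmdc1, for the membrane arm of complex I, differed by -0.30 ± 0.10, and Ttc19, for complex III, by -0.29 ± 0.13 on 1 probe and 0.02 on the other. Cox10, an enzyme in the synthesis of the haem of complex IV, differed by -0.18 ± 0.08 on 1 probe and by 0.04, with overlapping groups, on the brighter other one.

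Mitochondrial ribosomal proteins, which serve translation of the mitochondrially encoded subunits, had 77 tested probes and a median of -0.04. Of these, 29 were positive and 48 negative, where 52.4% of all tested probes were positive. At an unadjusted p under 0.05, 1 was higher and 1 lower, against 6.43% and 5.81% of all tested probes. The higher probe was for Mrps33 (0.21 ± 0.09). The lower was for Mrps28, which had 8.83, 9.05 and 8.99 in mutants and 9.32, 9.30 and 9.66 in wildtypes (-0.47 ± 0.11, limma adjusted p = 0.226). The tricarboxylic acid cycle list had 15 tested probes and a median of -0.03. At the same level 1 was higher (Ogdh, 0.20 ± 0.08) and 0 lower, beside the same shares of all tested probes. In coenzyme Q synthesis, 10 probes had a median of -0.01, with Coq4 at -0.28 ± 0.10 and Pdss1 at -0.30 ± 0.12, the second with 1 spot missing on mutant a.

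**Figure D4:**
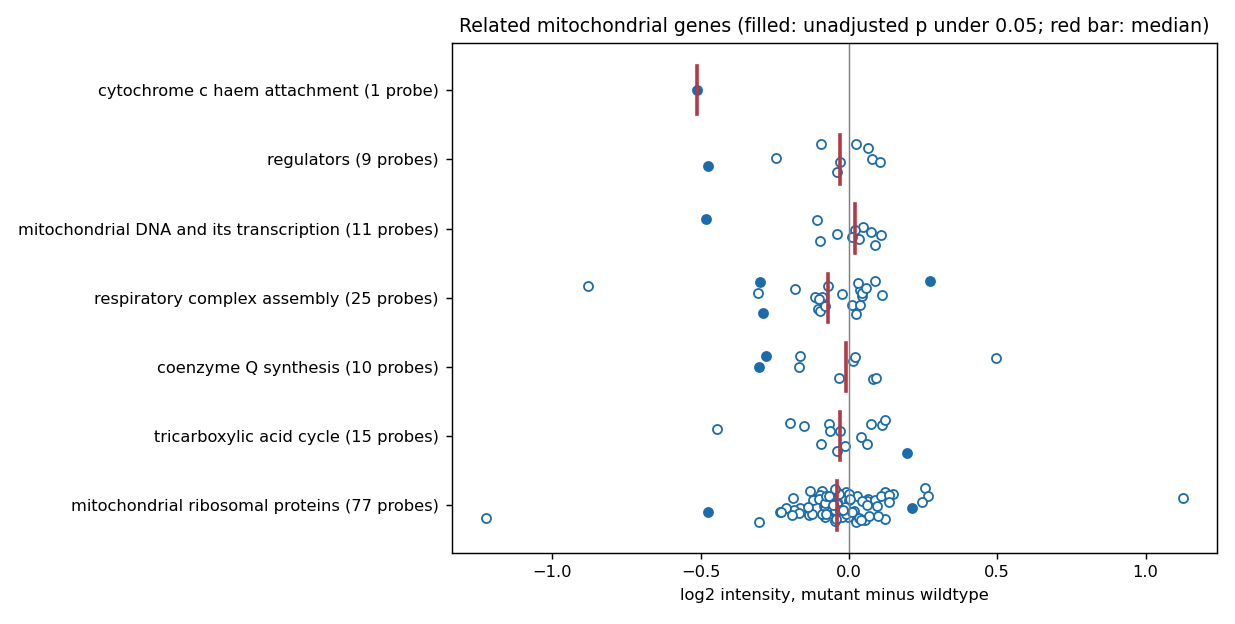
Difference in log2 intensity, mutant minus wildtype, for each tested probe of 7 related mitochondrial lists (points, filled where the unadjusted limma p was under 0.05) with the list median as a red bar. The medians of the 6 lists with more than 1 probe lie between -0.07 and 0.02, and single genes such as Hccs, Nrf1 and Tfam stand to the left of them. Bcs1l (-0.88) stands further left, and Coq7 (0.50) and the Mrps12 probe GE119544 (1.12) to the right, each with 1 deviating array.

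Cell types that a posterior dissection can hold were followed with marker lists. The summed linear level of 10 erythroid probes ran from 71537 to 80675 over the mutant arrays and from 64584 to 81708 over the wildtype arrays. The sum leaves out Hbb-y, which had no usable spot on mutant a. Its brightest probes, Hbb-bh1 GE117914 and Hba-x, were saturated on 6 and 4 arrays. Saturation caps those values, so the sums cannot decide whether erythroid content differed. Of all 11 tested erythroid probes 10 were positive (median 0.23), against 52.4% of all tested probes. At an unadjusted p under 0.05, 3 of the erythroid probes were higher, against 6.43% of all tested probes. The neural tube list summed to 1926 to 2350 in mutants and 2608 to 2675 in wildtypes, with 1 of 4 probes positive and 3 negative. At an unadjusted p under 0.05, 2 of them were lower and 0 higher, against 5.81% and 6.43% of all tested probes. Pax6 fell by 1.15 on the log2 scale (limma adjusted p = 0.00287) and Sox2 differed by -0.50, both with all mutant arrays below all wildtype arrays. Sox1 differed by -0.05 with overlapping groups, and Nes by 0.16 with all mutant arrays above all wildtype arrays. The posterior identity list, with all of its 5 probes tested, summed to 6986 to 7782 in mutants and 7860 to 8423 in wildtypes, with 4 of 5 negative. At an unadjusted p under 0.05, 1 of these was lower and 0 higher, against 5.81% and 6.43% of all tested probes. The lower probe was for Hoxa9 (-0.51, limma adjusted p = 0.147), whose groups did not overlap. The 4 tested endothelial probes summed to 2363 to 2432 in mutants and 2051 to 2346 in wildtypes, which did not overlap. Of these probes 3 were positive. At an unadjusted p under 0.05, 1 was higher (Kdr at 0.25, limma adjusted p = 0.330), against 6.43% of all tested probes. Of 2 tested gut endoderm probes, 1 was lower at that level (Cldn6 at -0.27, without overlap), against 5.81% of all tested probes. The other, for Sox17, differed by 0.07. In the erythroid, endothelial, posterior identity, paraxial mesoderm, gut and liver lists 0 probes passed after adjustment. The part of these cell types in the subunit values was not tested.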

How the data were processed

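RNA of 6 samples was hybridised to 1-colour arrays, and spots were quantified with CodeLink Expression Analysis 4.1.0, per the file headers, as intensity (spot mean and median of the local background). The deposited series table was identical to the scanner's normalized intensity (largest difference 0), on a linear scale. Starting from the scanner intensities, limma's normexp (offset 50) was used for background correction and quantile normalization was applied to the log2 values. Control spots did not enter, contaminated, irregular and masked spots counted as missing, and saturated spots were kept. A probe was tested if the scanner software marked it good or saturated, here called above background, on 3 or more of the 6 arrays and if each group had 2 or more usable spots. The test was limma 3.58.1 in R 4.3.3 (lmFit and eBayes), two-sided, adjusted by Benjamini-Hochberg across the 21688 probes tested, with a threshold of 0.05. The script was tested on simulated data. The offset makes differences of dim probes smaller than they are, and the number of arrays limits the precision.

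Symbols came from the platform annotation (21442 probes updated through Entrez IDs with RefSeq's GRCm38.p6 table, 135 unchanged), from RefSeq accessions (417) or from the array file (469). No symbol was found for 12300 probes, and 204 with several symbols were left unnamed. The members, lists and motifs were chosen with earlier results of these data known. Genes were named by a rule, namely Fkbp8, the 5 smallest p per complex and the largest difference in each direction, tissue-restricted isoforms, Cycs, genes whose probes differed in sign and up to 4 genes per related list. Further members were added to account for each complex, and 1 member, included in the counts, is not reported here by name. A bound on a fold sets the brighter group against the lowest intensity above background. Alternatives were median centring, cyclic loess, plain background subtraction (floor 1) or none, the deposited table, stricter and looser filters, an intensity trend, array weights, saturated spots as missing, 1 probe per gene, complex I without Ndufa4l2, an adjusted p under 0.1 and leaving out each array.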

Additional observations from a re-analysis of the deposited data

How the results depend on the processing

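The count of 0 members past an adjusted p of 0.05 was the same in every setting tried, as it was at an adjusted p under 0.1, and the smallest adjusted p ranged from 0.144 to 0.452. Over all probes 26 passed, but 16 with median centring, 13 with background subtraction, 15 with the deposited table, 16 with the filter on all 6 arrays, and 11 to 37 when 1 array was left out (11 without mutant b, wildtype d or wildtype f, 14 without wildtype e, 37 without mutant a). At an unadjusted p under 0.05 there were 17 members (23.9%, against 12.2% of all tested probes), but 11 with median centring (15.5%, against 8.48%), 9 with background subtraction (12.7%, against 11.0%), 9 with the deposited table (12.7%, against 10.6%), and 8 to 17 when 1 array was left out. Without wildtype f there were 8 (11.3%, against 8.05%) and without wildtype e 9 (12.7%, against 8.99%). None of these 17 changed sign in any setting. They were picked by their p in these same data, and their groups did not overlap. Leaving out 1 array therefore could not change their sign, and those settings say nothing about its stability. With median centring the medians of complexes I, III, IV and V were 0.0520, -0.0226, 0.0240 and 0.0920, and the median of all tested probes was 0.0307. The complex I median was 0.0155 with the deposited table and the complex IV median -0.0476 with cyclic loess. Leaving out 1 array gave medians of -0.0374 to -0.0105 for complex I, 0.0164 to 0.225 for complex II, -0.109 to -0.0397 for complex III, -0.0520 to 0.0202 for complex IV and 0.0112 to 0.0692 for complex V. Of 1080 values of 68 named probes, 1055 kept their direction and side of the threshold, 2 (Hccs) moved past it, and 23, over 10 probes, changed sign. Many of these probes were named for their p or difference in these same data, so this tally does not measure stability. With median centring Cox6a1 was 0.0602, Ndufaf1 0.0643, the Ndufaf7 probe GE129736 0.0696 and Ndufa4l2 0.0464, and with the deposited table they were 0.0213, 0.0286, 0.0357 and 0.0108. Uqcrh was -0.00219 with cyclic loess and Ndufaf1 0.00297 with array weights. Leaving out 1 array gave ranges that crossed 0 for Sdhb (-0.472 to 0.0516), Ndufa12 (-0.383 to 0.167), Cox6a1 (-0.0362 to 0.0333), Uqcr10 (-0.00646 to 0.115), Uqcrh (-0.0316 to 0.0593), Cox4i2 (-0.0900 to 0.0481), Ndufaf1 (-0.106 to 0.0498), the Ndufaf7 probe (-0.0194 to 0.0153) and the Atp5g1 probe GE1549209 (-0.0103 to 0.0925). The causes were not tested. No paired analysis was possible because the groups share no replicate letters. A slide block was not run because each array is on its own slide.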

Other observations

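Some probes without a symbol are described in the array file as similar to respiratory subunits, and they were chosen after their values were seen. The probe described as ATP synthase alpha, GE41191, had 11.80, 12.04 and 11.83 in mutants and 12.10, 12.08 and 12.18 in wildtypes, a difference of -0.23 ± 0.09 (limma adjusted p = 0.356), on the same side as the named Atp5a1 probe and without overlap. Probes described as the oligomycin sensitivity protein of ATP synthase (GE38704, 0.18 ± 0.09), the liver form of cytochrome c oxidase subunit VIII (GE34877, 0.11 ± 0.07) and subunit IV (GE42618, 0.06 ± 0.09) had positive differences. So had GE1492457, described as a coenzyme Q-binding subunit of complex III (0.20 ± 0.12), and GE1497595, described as ATP synthase beta (0.06 ± 0.10), while GE121576, described as the smallest subunit of complex III, differed by -0.09 ± 0.12.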
